A study of Mus musculus with 2 samples.

Results

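Intragenic peaks are regions called as enriched in the body of a gene, away from both of its ends. A peak of the deposited list was taken as intragenic if its interval overlapped a protein-coding gene and lay more than 3 kb from every end of every gene in the RefSeq annotation of GRCm38 (mm10). It was kept if the longest protein-coding gene it overlapped was shorter than 300 kb, and it was assigned to that gene. This rule uses positions alone, and 1481 of the 5326 peaks met it (27.8%, 95% exact binomial interval 26.6% to 29.0%). They lay in 1297 genes, 8.65% of the 14993 protein-coding genes under 300 kb that had any bases more than 3 kb from every gene end. The longest gene with such a peak was Atp2b2 at 298783 bp, with a pileup of 3, and the shortest gene just beyond the length limit with a peak was Kcnq3 at 300263 bp, with a pileup of 2. The peak nearest to a gene end inside the rule was 3020 bp from one, in Tbc1d13, and the nearest one outside it was 2984 bp from one, in Pde5a.

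The peaks came from Cut&Tag on nuclei purified from mouse hippocampus. In this assay an antibody on a chromatin protein guides a Tn5 transposase fused to protein A, which inserts sequencing adapters into DNA close by. One library was made with a rabbit anti-Smad4 antibody and 1 with a control IgG, so neither had a replicate, and the labels give no genotype, treatment, age, or sex for the mice. GEO ties the list to the IgG library, the name of the list states no antibody, and no second list was analysed here, so the peaks are described without an antibody and anti-Smad4 and IgG were not compared. Read numbers were not known, and a list of peaks holds no marker expression against which the tissue could be checked.

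Smad4 is the common partner of the receptor-regulated Smads in transforming growth factor beta (TGF-β) and bone morphogenetic protein (BMP) signaling. Ligands bind receptor kinases at the cell surface, the receptors phosphorylate the receptor-regulated Smads, and these enter the nucleus with Smad4, where the complex binds short DNA elements with GTCT (AGAC on the other strand) or GC-rich elements such as GGCGC. Enhancers, alternative promoters, and exons can all lie inside genes. In neurons and glia this pathway is known for roles in synapse formation, axon growth, and the response to injury.

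RefSeq lists further start sites inside many genes, and 25 of the peaks in genes under 300 kb had their summit within 1 kb of one. The windows of 300 bases around such starts (250 before and 50 after the start, RefSeq, GRCm38) are shown for the 4 with the highest −log10 q whose peak overlapped a window of its own gene, and for Dlg3, a synaptic gene that the study named. They are Ddx50, an RNA helicase, at chr10:62651169-62651468 (minus strand), Dido1, a nuclear chromatin-binding protein, at chr2:180702053-180702352 (minus strand), Adar, an RNA-editing adenosine deaminase, at chr3:89730468-89730767 (plus strand), Mettl3, an RNA adenosine methyltransferase, at chr14:52305075-52305374 (minus strand), and Dlg3, a scaffold protein of the postsynaptic density, at chrX:100774245-100774544 (plus strand). Capitals mark GTCT or AGAC, and GGCGC or GCGCC. All are written 5′ to 3′ on the strand of the gene.
Ddx50: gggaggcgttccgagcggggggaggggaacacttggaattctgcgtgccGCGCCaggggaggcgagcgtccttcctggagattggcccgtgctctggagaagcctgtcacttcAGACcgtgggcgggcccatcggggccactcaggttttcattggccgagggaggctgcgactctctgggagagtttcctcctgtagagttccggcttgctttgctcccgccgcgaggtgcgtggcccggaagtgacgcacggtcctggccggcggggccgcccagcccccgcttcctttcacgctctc
Dido1: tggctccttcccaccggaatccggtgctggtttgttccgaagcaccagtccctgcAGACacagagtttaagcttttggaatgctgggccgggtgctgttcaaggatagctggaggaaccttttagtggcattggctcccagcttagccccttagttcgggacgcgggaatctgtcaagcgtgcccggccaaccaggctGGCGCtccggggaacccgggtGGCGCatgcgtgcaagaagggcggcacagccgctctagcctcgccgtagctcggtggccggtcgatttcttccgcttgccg
Adar: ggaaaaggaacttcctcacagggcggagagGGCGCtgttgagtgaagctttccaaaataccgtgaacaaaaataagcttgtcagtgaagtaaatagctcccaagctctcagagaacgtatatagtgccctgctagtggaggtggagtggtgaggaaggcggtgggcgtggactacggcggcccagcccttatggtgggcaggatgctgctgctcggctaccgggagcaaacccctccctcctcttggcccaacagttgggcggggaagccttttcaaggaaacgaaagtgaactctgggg
Mettl3: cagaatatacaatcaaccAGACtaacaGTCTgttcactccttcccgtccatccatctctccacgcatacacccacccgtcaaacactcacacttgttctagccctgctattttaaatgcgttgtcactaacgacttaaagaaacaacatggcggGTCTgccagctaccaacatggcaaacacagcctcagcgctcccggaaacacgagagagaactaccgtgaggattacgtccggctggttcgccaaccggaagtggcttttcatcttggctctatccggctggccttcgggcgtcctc
Dlg3: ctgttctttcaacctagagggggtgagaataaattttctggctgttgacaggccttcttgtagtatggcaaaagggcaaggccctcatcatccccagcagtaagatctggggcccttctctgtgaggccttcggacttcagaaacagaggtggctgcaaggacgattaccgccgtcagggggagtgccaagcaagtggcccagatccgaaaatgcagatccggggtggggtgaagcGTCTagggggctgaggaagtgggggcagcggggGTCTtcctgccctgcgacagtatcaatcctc
The peaks covered 156 bases of the window of Ddx50, 49 of Dido1, 171 of Adar, and 37 of Mettl3, and they covered 0 bases of that of Dlg3. GTCT or AGAC occurred 3 times in the window of Mettl3, 2 times in that of Dlg3, 1 time each in those of Ddx50 and Dido1, and 0 times in that of Adar. GGCGC or GCGCC occurred 2 times in the window of Dido1 and 1 time each in those of Ddx50 and Adar.

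A further set of windows belongs to genes with a peak in the body and a peak that overlapped one of their start windows. Of 40 such genes, the 4 with the highest summed −log10 q are shown: Thada at chr17:84466159-84466458 (minus strand), Fam193a at chr5:34369683-34369982 (plus strand), Parp11, a mono-ADP-ribosyltransferase, at chr6:127453377-127453676 (plus strand), and Atf7ip, a partner of the histone methyltransferase Setdb1, at chr6:136518601-136518900 (plus strand). Capitals mark the same motifs.
Thada: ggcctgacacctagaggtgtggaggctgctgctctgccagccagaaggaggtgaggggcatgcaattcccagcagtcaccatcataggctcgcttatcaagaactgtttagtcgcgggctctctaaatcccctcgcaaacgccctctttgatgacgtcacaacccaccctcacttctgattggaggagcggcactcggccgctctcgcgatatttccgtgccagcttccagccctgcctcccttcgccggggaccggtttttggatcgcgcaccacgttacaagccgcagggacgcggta
Fam193a: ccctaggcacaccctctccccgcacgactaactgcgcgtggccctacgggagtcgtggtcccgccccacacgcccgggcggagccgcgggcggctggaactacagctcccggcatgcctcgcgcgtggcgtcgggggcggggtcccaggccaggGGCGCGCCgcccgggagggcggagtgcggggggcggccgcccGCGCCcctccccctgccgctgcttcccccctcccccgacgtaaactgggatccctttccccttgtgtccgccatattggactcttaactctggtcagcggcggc
Parp11: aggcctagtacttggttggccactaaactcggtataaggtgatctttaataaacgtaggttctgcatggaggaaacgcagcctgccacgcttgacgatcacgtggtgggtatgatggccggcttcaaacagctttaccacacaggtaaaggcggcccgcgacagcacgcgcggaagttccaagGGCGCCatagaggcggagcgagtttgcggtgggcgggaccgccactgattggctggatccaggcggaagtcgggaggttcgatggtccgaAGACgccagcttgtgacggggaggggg
Atf7ip: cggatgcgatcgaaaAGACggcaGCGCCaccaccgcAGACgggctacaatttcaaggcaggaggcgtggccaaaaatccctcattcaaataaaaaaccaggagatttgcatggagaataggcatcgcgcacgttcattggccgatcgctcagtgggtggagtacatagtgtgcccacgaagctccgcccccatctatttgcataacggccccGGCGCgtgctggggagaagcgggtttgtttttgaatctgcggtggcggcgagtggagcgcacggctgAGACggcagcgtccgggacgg
In Thada the peak at the window covered the start and had a pileup of 4, and the peaks in the body had pileups of 7 and 2. In Fam193a the peak at the window covered its first 20 bases and not the start, with a pileup of 7, and that in the body had one of 3. In Atf7ip the peak at the window covered the start with a pileup of 3, below both peaks in the body, with pileups of 6 and 7. The start of Parp11 shown lay inside the gene as RefSeq bounds it, so that both of its peaks were intragenic. That at the window covered 34 bases after the start and had a pileup of 2, and the other had one of 10. Among all 32851 RefSeq windows of this length, 88.0% held GTCT or AGAC, 49.6% held CAGAC or GTCTG (which contain the former), 36.9% held GGCGC or GCGCC, and 0.213% held the palindrome GTCTAGAC. Of the 18 windows that the intragenic peaks overlapped, 15 (83.3%) held GTCT or AGAC, 11 (61.1%) held CAGAC or GTCTG, 12 (66.7%) held GGCGC or GCGCC, and 0 held GTCTAGAC. These are matches of letters in a window and not measured binding sites.

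Most peaks in genes under 300 kb rested on few fragments. The pileup, the number of fragments over the summit, was recovered from the deposited fold enrichment and −log10 p. It was 2 for 782 peaks (52.8%), 3 for 261 (17.6%), 5 or more for 268 (18.1%), and 10 or more for 47 (3.17%). The median fold enrichment was 2.88 and ranged from 2.83 to 25.6. Since values of fold and q are fixed by pileup and background, many peaks shared them. A fold of 2.88 with a −log10 q of 1.57 occurred in 403 peaks (27.2%) and a fold of 2.83 with a −log10 q of 1.36 in 349 (23.6%). A q-value of at most 0.01 was reached by 584 peaks (39.4%) and one of at most 0.001 by 337 (22.8%). The median width was 289 bp (range 193 to 831 bp).

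Peaks with a pileup of 3 or more were more common in genes under 300 kb than in longer genes and in gene deserts, and less common than at gene ends. Such peaks made up 699 of 1481 (47.2%, 95% exact binomial interval 44.6% to 49.8%) in genes under 300 kb. In the 560 intragenic peaks of longer genes the share was 39.3% (35.2% to 43.5%), lower by 7.91 percentage points (Fisher exact test, two-sided, adjusted over 3 comparisons, p = 0.00141). Among 617 peaks lying 1 kb or less from a protein-coding gene end it was 72.4% (68.7% to 75.9%, adjusted p = 2.4e-26 by the same exact test). Among 391 peaks outside genes and over 50 kb from any gene end it was 28.6% (24.2% to 33.4%, adjusted p = 4.8e-11 by the exact test). Peaks with a pileup of 10 or more did not follow this order, at 3.17% (2.34% to 4.20%) in genes under 300 kb, 1.79% (0.860% to 3.26%) in longer genes, 1.46% (0.669% to 2.75%) at gene ends, and 2.30% (1.06% to 4.32%) in deserts. With a fold enrichment of 5 or more in place of the pileup, the difference from longer genes was 2.55 percentage points (adjusted p = 0.179, exact test) that from deserts 4.23 percentage points (adjusted p = 0.0668, exact test), and that from gene ends −6.97 percentage points (adjusted p = 0.00093, exact test), compared with −25.2 for the pileup. The recovered local background moved with these classes. Its median was 0.0607 fragments in genes under 300 kb and in longer genes, 0.142 at gene ends, and 0.0405 in deserts. Its upper quartile was 0.121 in genes under 300 kb and 0.0810 in longer genes. No peak of these classes had a fold below 2.83, so a pileup of 2 could be called only at a low background. The share thus depends in part on background by construction, and the part of background in the differences was not tested. Intervals and p-values here and below cover counting error within 1 list, not the spread between mice.

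**Figure D1:**
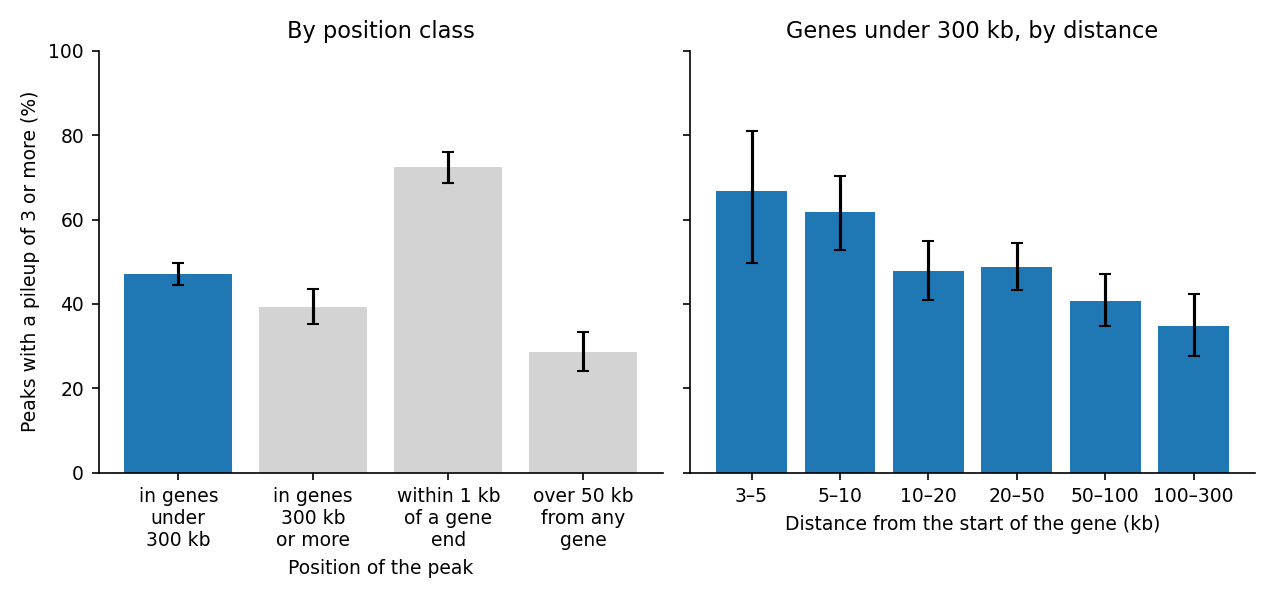
Share of peaks with a pileup of 3 or more (%), with 95% exact binomial intervals, in 4 position classes (left) and for peaks in genes under 300 kb by distance from the start of their gene in kb (right). The share was 47.2% in genes under 300 kb, between the 72.4% at gene ends and the 28.6% in gene deserts, and was 66.7% at 3–5 kb from the start and 34.7% at 100–300 kb. It depends in part on local background, whose part in these differences was not tested.

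Genes under 300 kb held more intragenic peaks per base than longer genes. The bases of protein-coding genes more than 3 kb from every gene end were taken as eligible, 565 Mb in genes under 300 kb and 300 Mb in longer ones. The rate was 2.62 peaks per Mb (95% exact Poisson interval 2.49 to 2.76) in the former, 1.40 times (1.27 to 1.55) that in longer genes (exact conditional binomial test of 2 rates, two-sided, p = 3.2e-12). Within the genes under 300 kb, the rate hardly varied with length. It was 2.61 per Mb in genes under 25 kb, 2.53 at 25–50 kb, 2.76 at 50–100 kb, 2.56 at 100–200 kb, and 2.62 at 200–300 kb, and all 5 intervals overlapped. Beyond the limit it was 2.25 (1.99 to 2.54) at 300–500 kb, whose interval still overlapped those below it, and 1.62 (1.44 to 1.82) at 500 kb and more, below every other class. The rate of peaks with a pileup of 3 or more was 1.52 per Mb (1.21 to 1.89) in genes under 25 kb, 1.24 (1.03 to 1.48) at 25–50 kb, 1.42 (1.23 to 1.62) at 50–100 kb, 1.08 (0.927 to 1.24) at 100–200 kb, and 1.08 (0.879 to 1.31) at 200–300 kb, with overlapping intervals. Beyond the limit it was 1.03 (0.852 to 1.23) at 300–500 kb and 0.544 (0.442 to 0.662) in genes of 500 kb and more.

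**Figure D2:**
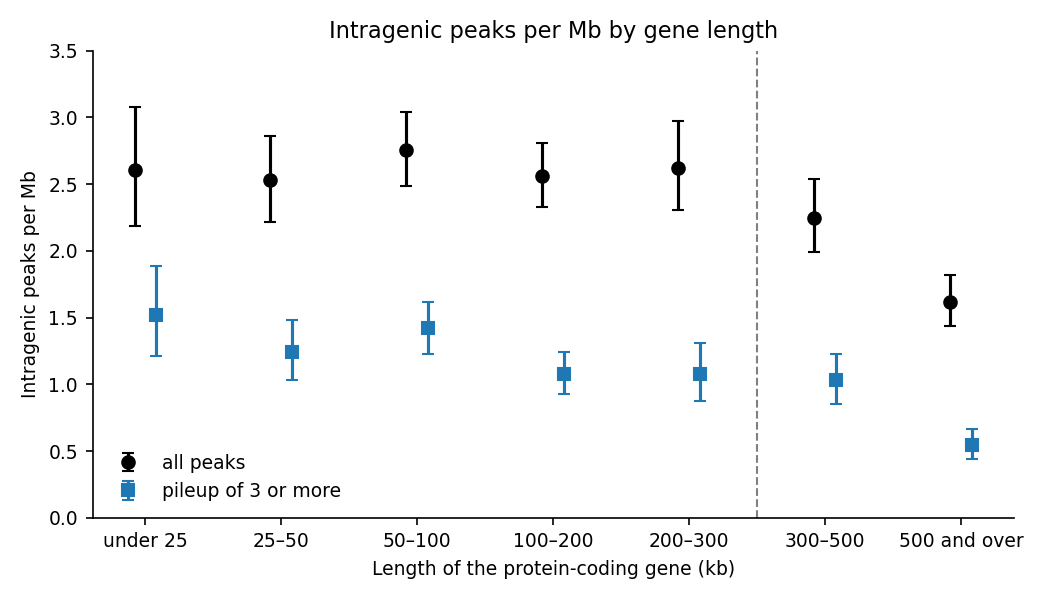
Intragenic peaks per Mb of eligible gene body, with 95% exact Poisson intervals, by length of the gene in kb (circles, all peaks; squares, peaks with a pileup of 3 or more). The dashed line is the limit of 300 kb. All peaks stayed between 2.53 and 2.76 per Mb below it and were at 1.62 per Mb in genes of 500 kb and more.

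The X chromosome held fewer intragenic peaks than the autosomes. There were 30 peaks in genes under 300 kb on X, 1.21 per Mb (0.817 to 1.73), and 1450 on the autosomes, 2.69 per Mb (2.55 to 2.83), a ratio of 0.450 (0.302 to 0.645, exact conditional binomial test, p = 1.2e-06). In longer genes X had 6 peaks, 0.418 per Mb (0.154 to 0.911), and the autosomes had 1.94 per Mb (1.78 to 2.11). The share with a pileup of 3 or more was 50.0% (31.3% to 68.7%) on X and 47.1% (44.5% to 49.7%) on the autosomes, with overlapping intervals. When the fold enrichment had to be 5 or more, 8 peaks on X gave a ratio of 0.716 (0.306 to 1.43, exact test, p = 0.441). The sex of the mice is not given in the labels. The study describes male mice but does not say which mice were used for Cut&Tag, and a part of sex in the ratio was not tested. Among the autosomes the rate was highest on chromosome 17, at 3.74 per Mb (2.96 to 4.67), and lowest on chromosome 12, at 1.94 (1.42 to 2.58). These are the extremes of 19 autosomes and were not tested against each other. The Y chromosome had 1 peak.

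**Figure D3:**
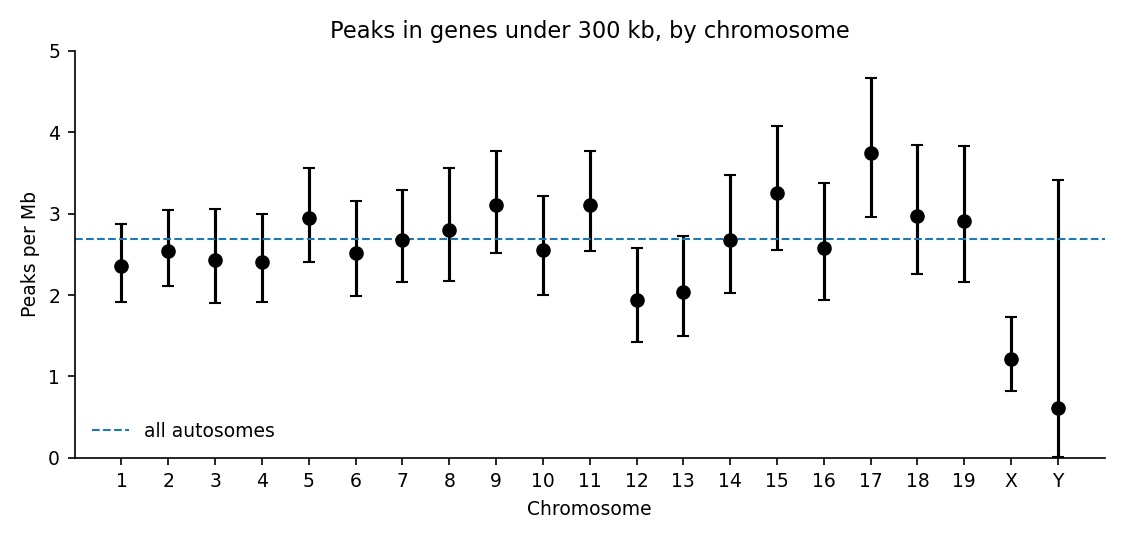
Peaks in genes under 300 kb per Mb of eligible gene body on each chromosome, with 95% exact Poisson intervals. The dashed line is the rate on all autosomes, 2.69 per Mb. X, at 1.21 per Mb, lay below it, and autosomes ranged from 1.94 per Mb on chromosome 12 to 3.74 on chromosome 17.

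The rate of peaks did not differ detectably between the parts of the gene before and after its midpoint, and the share of peaks with a pileup of 3 or more was higher near the start than far from it. The strand was known for the genes of 1132 peaks (76.4%). Of these, 572 lay before the midpoint of the gene and 560 after it, each in 223 Mb, a ratio of 1.02 (0.906 to 1.15, exact conditional binomial test, p = 0.744). Restricted to q-values up to 0.01, the ratio was 1.23 (1.01 to 1.49), with 243 before and 198 after the midpoint (exact test, p = 0.0361), which was not adjusted over the alternatives. By distance from the start, the rate of all peaks was 1.88 per Mb (1.33 to 2.56) at 3–5 kb, 2.67 (2.23 to 3.18) at 5–10 kb, and 2.25 (1.92 to 2.61) at 100–300 kb. The share with a pileup of 3 or more was 66.7% (49.8% to 80.9%) at 3–5 kb, where there were 39 peaks, 61.9% (52.8% to 70.4%) at 5–10 kb, 40.8% (34.9% to 47.0%) at 50–100 kb, and 34.7% (27.6% to 42.3%) at 100–300 kb. The rate of such peaks was not highest nearest the start. It was 1.25 per Mb (0.817 to 1.83) at 3–5 kb, 1.65 (1.31 to 2.06) at 5–10 kb, and 1.35 (1.09 to 1.64) at 10–20 kb. At 50–100 kb it was 1.10 (0.904 to 1.33), and at 100–300 kb 0.779 (0.594 to 1.00). Peaks far from a start can only lie in long genes. Within genes of 100–300 kb alone the share was 57.1% (44.7% to 68.9%, 70 peaks) at 3–20 kb from the start and 34.7% (27.6% to 42.3%, 173 peaks) at 100–300 kb, and within genes under 100 kb it was 54.0% (48.2% to 59.7%) at 3–20 kb and 47.3% (36.9% to 57.9%) at 50–100 kb, with overlapping intervals in the latter. These shares are descriptions and were not tested. No peak in genes under 300 kb had a fold below 2.83, so a pileup of 2 could be called only at a low local background. The share thus depends in part on background, whose part in the fall of the share with distance was not tested. By distance from the nearest gene end of any kind, the median was 13321 bp (range 3020 to 141514 bp), and the share with a pileup of 3 or more was 55.6% (48.0% to 63.0%) at 3–5 kb and 40.0% (31.5% to 49.0%) at 50–150 kb.

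Peaks were denser around start sites inside the genes than elsewhere in the same territory. On the 20 chromosomes with windows in the table, 2196 RefSeq start sites lay in the eligible bases of genes under 300 kb. Within 1 kb of them there were 25 peaks in 3.94 Mb, 6.35 per Mb (4.11 to 9.37), compared with 1398 peaks at 2.58 per Mb (2.45 to 2.72) elsewhere, a ratio of 2.46 (1.59 to 3.65, exact conditional binomial test, p = 9.9e-05). This comparison was chosen after the values were seen. Elsewhere includes genes for which the table lists no start. Within genes that have one, there were 25 peaks near a start and 1107 elsewhere, and the ratio was 2.57 (1.65 to 3.81, exact test, p = 3.5e-05). For peaks with a pileup of 3 or more the ratio was 3.58 (2.07 to 5.78, exact test, p = 1.2e-05, 17 peaks near a start), and for those with a pileup of 2 it was 1.48 (0.635 to 2.93, exact test, p = 0.274, 8 peaks). With 10 kb in place of 3 kb as the distance from every gene end, 9 peaks were near a start and the ratio was 2.01 (0.917 to 3.84, exact test, p = 0.0507), and among peaks with a fold of 5 or more there were 4, with a ratio of 2.30 (0.622 to 5.97, exact test, p = 0.101).

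The 25 peaks lay in 24 genes, and 24 of them were near a start of the gene they were assigned to. Their summits were upstream of the start for 12 and downstream for 13. For 15 of the 25, the table listed no start within 50 bp of the outer start of the gene as the annotation bounds it, so every listed start of these genes lay inside the annotated gene. The peak of Ddx50 had a pileup of 5 and a summit 85 bp upstream of its start, and that of Adar a pileup of 5 and a summit 54 bp upstream. The summit in Dido1 was 14 bp downstream and that in Mettl3 48 bp downstream, each with a pileup of 4. Sgip1, an endocytic protein of neurons, had a summit 74 bp downstream of its listed start with a pileup of 3. Mapk8, the stress kinase JNK1, had one 166 bp downstream, and Nr1h3, the oxysterol receptor LXRα, one 150 bp downstream, with pileups of 2 and 4. Zfp385a was the gene with a pair of such peaks, with pileups of 4 and 3.

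Dlg3 was examined with 12 others of the genes that the study named from Cut&Tag or whose proteins it measured, not all of which are covered here. Of these 13 genes, 10 were under 300 kb, and 1 of the 10 had an intragenic peak, compared with 1297 of 14993 protein-coding genes under 300 kb with eligible bases (8.65%). Dlg3 encodes a scaffold protein that anchors N-methyl-D-aspartate (NMDA) receptors at the synapse. Its peak, chrX:100773762-100774055, had a pileup of 5, a fold enrichment of 5.03, and a −log10 q of 3.36, and it ranked 1033 of the 5326 peaks by −log10 q. It lay 6351 bp from the lower end of the gene as RefSeq bounds it (chrX:100767411-100818410, 51000 bp). Relative to the RefSeq start whose window is shown above (100774495, plus strand), it spanned 733 to 440 bp upstream, with its summit 719 bp upstream. The other listed start of Dlg3 lay at 100777271, and the peak ended 3216 bp upstream of it. The study places Smad4 binding in the Dlg3 promoter, at a segment counted from the start codon, and tested it by ChIP and a reporter assay. This peak was not compared with that segment here. Map1a, a microtubule-associated protein, Grin2c, an NMDA receptor subunit, and Smad4 itself had 0 intragenic peaks. The same held for Syn1, Dlg4, Grin1, Homer1, Gria2, and Camk2a. The eligible bases of these genes were few, between 0.00820 Mb in Map1a and 0.117 Mb in Gria2, so that at 2.62 peaks per Mb less than 1 peak was expected in each. Of the 13, Grin2a, Grin2b, and Gria1 exceed 300 kb and had 2, 2, and 3 intragenic peaks, respectively.

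The strongest intragenic peaks lay in genes of several kinds. That with the highest −log10 q, 91.3, was in Chl1, a neural cell adhesion molecule of the L1 family, at chr6:103649061-103649282, with a pileup of 83 and a fold enrichment of 25.6. It ranked 12 in the whole list. The next was in Mpp7, a membrane-associated guanylate kinase scaffold, with a pileup of 57 and a −log10 q of 66.1. Cdk8, the kinase of the Mediator complex, followed with a pileup of 43 and a fold of 19.5, then Gm525 with 37 and 17.8, and Ppp1r9a, the actin-binding neurabin of dendritic spines, with 34 and 17.2. Peaks with pileups from 13 to 31 lay in Map3k4 (a MAP kinase kinase kinase), C2cd5, Fli1 (an ETS transcription factor), Acap2 (a GTPase-activating protein for Arf6), Slc8a2 (a sodium–calcium exchanger), Tmem132b, Cntfr (the receptor of ciliary neurotrophic factor), Kmt2c (a histone methyltransferase), Rab36, and Iqch. The recovered local background of these 15 peaks was 0.263 fragments in Iqch and 2.29 in Chl1, against a median of 0.0607 over all peaks in genes under 300 kb.

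Most genes with a peak had only 1. Of the 1297 genes, 1144 (88.2%) had 1 peak, 130 had 2, 16 had 3, 6 had 4, and 1 had 5. The gaps between neighbouring peaks of one gene, 184 in all, had a median of 29308 bp (range 258 to 208032 bp), and 24 were within 10 kb. The gene with 5 was Ppp3ca, the catalytic subunit of calcineurin, which acts in synaptic depression. Its peaks were spread over its 268 kb, with pileups of 2, 2, 7, 3, and 2. Those with 4 peaks each were Trak1, an adaptor of mitochondrial transport in axons, Mrtfa, a coactivator of serum response factor, Armc4, Tmem132b, Celf4, a neuronal RNA-binding protein, and Itga9, an integrin subunit. In Trak1 the pileups were 4, 3, 2, and 3. In Celf4 they were 3, 3, 2, and 3, and in Mrtfa 2, 2, 4, and 2. Tmem132b had 1 strong peak with a pileup of 17 beside others of 6, 3, and 2, and Itga9 had 1 with a pileup of 11 beside others of 2, 2, and 3. Of the 16 genes with 3 peaks, those with the most per Mb completed the 10: Pfkfb3, a regulator of glycolysis, at 55.4 per Mb, Map3k4 at 44.8 per Mb, and Wdr59, a component of the amino acid sensing pathway of mTORC1, at 44.5 per Mb. All 3 peaks of Wdr59 had a pileup of 2, whereas those of Map3k4 had 7, 31, and 3. These genes were chosen for their number of peaks and, among ties, their peaks per Mb, so no test was made of either.

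**Figure D4:**
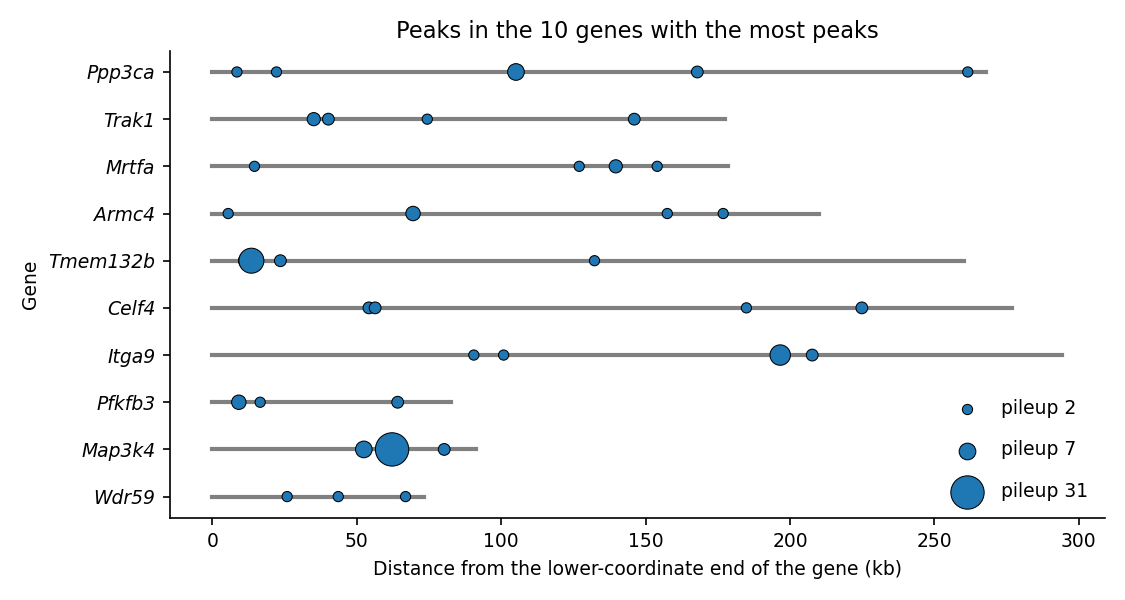
Positions of intragenic peaks in the 10 genes under 300 kb with the most peaks. Grey lines are the genes, drawn from the end with the lower coordinate in kb; circles are summits, and their area grows with the pileup. The largest circle is the peak of Map3k4 with a pileup of 31, and the 3 peaks of Wdr59 all had a pileup of 2.

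A peak at an end of the gene and one in its body went together in few genes. A peak within 1 kb of an own end was found in 51 of the 1297 genes with an intragenic peak (3.93%, 2.94% to 5.14%) and in 503 of the 13696 without one (3.67%, 3.36% to 4.00%). In genes under 50 kb the shares were 3.97% (2.24% to 6.46%) and 3.84% (3.48% to 4.23%), in genes of 50–100 kb 6.01% (3.80% to 8.96%) and 3.76% (2.99% to 4.66%), in genes of 100–200 kb 2.71% (1.31% to 4.93%) and 2.11% (1.33% to 3.18%), and in genes of 200–300 kb 2.17% (0.595% to 5.47%) and 2.48% (0.915% to 5.32%). The intervals overlapped in each class of length.

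Of 51 TGF-β and BMP pathway genes under 300 kb, 9 (17.6%, compared with 8.65% of all eligible genes) had an intragenic peak, 1 in each. A pileup of 3 or more was found in 3 of the 9 peaks, compared with 47.2% of all intragenic peaks in genes under 300 kb. Among the receptors, Acvr1c, an activin receptor-like kinase, had a pileup of 4 and a fold of 4.63, and Acvr1, a BMP receptor kinase, had 2 and 2.88. Among the Smads, only Smad3, which carries the TGF-β signal, had a peak with a pileup of 4 and a fold of 4.23. The ligand Bmp7 had one with a pileup of 3, and Smurf2, a ubiquitin ligase that limits the pathway, one with a pileup of 2. The median length of these 51 genes was 61.0 kb, compared with 27.0 kb over all eligible genes, and a longer gene has more bases for a peak. The rate over these genes was 3.36 per Mb (1.53 to 6.37), and its interval held the 2.62 per Mb of all genes. Of 25 target genes of the pathway, 2 had a peak, a share close to the 8.65% of all eligible genes: Pmepa1, an inhibitor of TGF-β signaling that the pathway induces, with a pileup of 5, and Ltbp2 with a pileup of 2.

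Among neuronal genes, 11 of 84 synaptic genes (13.1%) held 12 peaks, 1.74 per Mb (0.900 to 3.04), compared with 8.65% of genes and 2.62 per Mb over all eligible genes, the values against which the lists below also stand. They included Dlg3 with a pileup of 5, Shank1, a postsynaptic scaffold, with 4, and Rph3a, a synaptic vesicle protein, with 3. The dendritic microtubule protein Map2 had 2 peaks with pileups of 2 and 3. Of 78 axon guidance genes, 19 (24.4%) held 24 peaks, 3.84 per Mb (2.46 to 5.71). They included Sema5b, a guidance cue with peaks of pileup 8 and 4, Epha7, an ephrin receptor with a pileup of 6, Slit1, a repellent of axons, with 6, and Dpysl2, which binds tubulin in growth cones, with 4. Of 34 genes of voltage-gated and related channels, 6 (17.6%) held 9 peaks, 2.96 per Mb (1.35 to 5.62), with the highest in the calcium channel Cacna1i with a pileup of 6, the sodium channel Scn8a with 5, and the potassium channel Kcnj6 with 5. Kcnn3 and Kcnh5 had peaks with pileups of up to 3 and 2.

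Of 87 chromatin regulators, 19 (21.8%) held 25 peaks, at 4.08 per Mb (2.64 to 6.02), compared with 8.65% of genes and 2.62 per Mb over all eligible genes. Of the 25 peaks, 15 had a pileup of 3 or more, compared with 47.2% of all intragenic peaks in genes under 300 kb. The genes included Kmt2c, with a pileup of 14, Hdac8, a histone deacetylase on X with pileups of 10 and 4, and Kdm2b, a histone demethylase, with 10. Tet2, which oxidises methylcytosine, had a pileup of 6, and Smarca2, an ATPase of the SWI/SNF remodeler, had one of 5. Of 58 Hippo pathway genes, 7 (12.1%) held 12 peaks (3.30 per Mb, 1.70 to 5.76), among them the polarity protein Crb1 with a pileup of 7 and Amotl1 with 4. Ptpn14 had 3 peaks and Tjp1 had 2, with pileups of 2 at their highest. Of 66 Wnt pathway genes, 9 (13.6%) held 11 peaks (2.92 per Mb, 1.46 to 5.22), among them Celsr1, a planar polarity cadherin, with a pileup of 5, Lrp5, a Wnt coreceptor, with 3, the transcription factor Lef1 with 3, and Nfatc1 and Nfatc2 with 3 each. The median gene length was 71.2 kb for the chromatin regulators, 68.9 kb for the synaptic genes, and 67.5 kb for the axon guidance genes. It was 64.0 kb for the channels, 46.8 kb for the Wnt genes, and 40.3 kb for the Hippo genes. Over all eligible genes it was 27.0 kb, and a longer gene has more bases in which a peak can fall. No test was made of the lists, and nothing was read from the order of their rates.

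**Figure D5:**
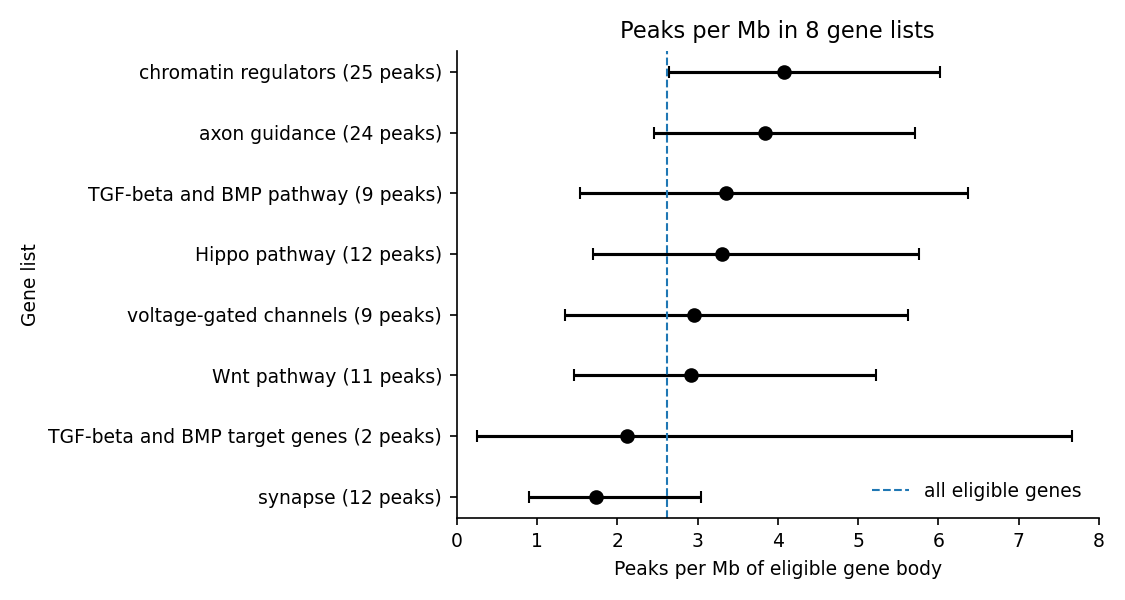
Intragenic peaks per Mb of eligible gene body in 8 gene lists, with 95% exact Poisson intervals and the number of peaks in parentheses. The dashed line is the rate of all eligible genes, 2.62 per Mb. The lists ranged from 1.74 per Mb in synaptic genes to 4.08 per Mb in chromatin regulators, with intervals that overlapped one another. Only the interval of the chromatin regulators (2.64 to 6.02) lay wholly above the dashed line, and the lists were not tested.

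Genes that mark cell types of the hippocampus were few in each list, and their shares with a peak stand against 8.65% of all eligible genes. Of 13 excitatory and 8 inhibitory neuron markers, 1 each had a peak (7.69% and 12.5%). Of 13 astrocyte markers, 2 (15.4%), Acsl6 and the glutamate transporter Slc1a2, had peaks with pileups of 5 and 4. Of 15 oligodendrocyte markers, 3 had a peak. Pdgfra, a receptor of oligodendrocyte precursors, had a pileup of 4, and Mbp, which encodes myelin basic protein, and Qk had pileups of 2. The microglial list had Ptprc (CD45), with a pileup of 5, of 10 genes (10.0%). Of 12 endothelial markers, 3 had a peak. The transporter Slco1a4 had a pileup of 4 and Flt1 and Abcg2 had pileups of 2. With only 1 to 3 genes with a peak in each list, the cell types could not be compared.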

How the data were processed

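Cut&Tag was performed on mouse hippocampus with 1 anti-Smad4 and 1 IgG library. The submitters' processing notes name BWA, MACS2, HOMER, and mm10, and the study used uniquely mapped reads and a peak cutoff of 0.05. Duplicate handling and the use of IgG as control are not given in the sources used here. The authors deposited for each peak a score, a fold enrichment over background, and the −log10 of the p- and q-values, all as MACS2 wrote them. No read counts were used, so depth was unknown.

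Peaks were compared with 49943 RefSeq genes of GRCm38 (21887 protein coding), with starts counted from 1. Neither genome sequence nor exons were used, so exon, intron, and UTR classes and peak sequences are not reported here. Strand and internal start sites came from 32851 RefSeq windows (27025 genes). A peak over several coding genes was assigned to the longest (12 peaks). Pileups were recovered from the fold enrichment, taken as (pileup + 1) / (background + 1), and −log10 p, taken as a Poisson tail, with a largest error of 0.00015. The recovery, the assignment of positions, and the rate test were tested on simulated data. Rates are peaks per Mb of eligible bases, without exclusion of assembly gaps, with exact Poisson intervals and an exact conditional binomial test. Shares have Clopper-Pearson intervals and Fisher exact tests with Benjamini-Hochberg adjustment.

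Named genes were those of the 15 peaks ranked highest by −log10 q, the 10 with the most peaks, up to 5 of each of 14 hand-written gene lists, 13 genes chosen from those of the study, and up to 4 with a peak at a start window. The results for 5 genes of these lists are not reported here. The other genes near internal starts were chosen after their values were seen. Members, lists, and tests were chosen with earlier results of these data known. Alternatives were stricter q, fold, and pileup, summits, coding ends alone, and other distance and length limits. Python 3.11.15, NumPy 2.4.6, pandas 2.3.3, SciPy 1.17.1, and Matplotlib 3.10.9 were used.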

Additional observations from a re-analysis of the deposited data

How the results depend on the processing

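Of 80 repeats of 9 results under 14 alternatives, 63 kept direction and side of the threshold, or for counts stayed within 1.5 times. The higher rate in genes under 300 kb, at ratios of 1.28 to 1.69, held in every repeat. So did the lower share of peaks past the cutoff than at gene ends. The difference was −28.1 to −24.0 percentage points for a pileup of 3 or more. For a fold of at least 5 it was −6.97, and for q-values up to 0.001 it was −5.28. The number of peaks was 584 at q-values up to 0.01, 252 at a fold enrichment of at least 5, 699 at a pileup of at least 3, and 923 with 10 kb from gene ends, and the number of genes was 560, 244, 656, and 814, respectively, since each of these keeps fewer peaks. The ratio of X to autosomes was 0.716 at a fold of at least 5. The ratio before to after the midpoint was 1.23 at q-values up to 0.01 (p = 0.0361, exact test), 0.997 with coding gene ends alone, and 0.968 with 1 kb from gene ends. The difference from longer genes was 2.93 percentage points for the share at q-values up to 0.001 and 2.55 for a fold of at least 5, and that from deserts was 4.23 for a fold of at least 5. The ratio at internal starts was 2.30 at a fold of at least 5 and 2.01 with 10 kb from gene ends, and these alternatives were chosen after seeing the data. The causes of the changes in ratios and differences were not tested.

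No paired analysis was possible because 1 list from 1 library was analysed, with no replicate of either antibody. For the same reason no replicate was left out. A pileup of 2 was the lowest in the list, which limits what the list holds.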
